A study of Mus musculus with 8 samples.

Results

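Integrins are receptors made of 1 α and 1 β subunit that hold cells to the extracellular matrix or to other cells, and focal adhesion linkers are the cytoplasmic proteins that couple them to actin. The genes examined here were 32 of the 22520 protein-coding genes in the deposited table. They were chosen by symbol and are 25 integrin subunits, the secreted integrin-like protein gene Itgbl1, and 6 linkers (Ilk, Lims1, Parva, Fermt2, Tln1 and Vcl). All 32 were found in the table. The choice applied no cutoff to a measured value, but it was made with earlier results of these data known.

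The libraries came from cells labelled as liver microvascular (written microvesicular in the labels). They were from mice on a C57BL/6 background at postnatal day 14, with 4 WT and 4 LRP1 eKO (eKO) libraries of mRNA. Mice of both groups carried floxed Lrp1 alleles (LRP1 f/f), and LRP1 eKO mice additionally carried the inducible Cdh5-CreER transgene, whose promoter is that of the endothelial cadherin gene, whereas WT littermates did not (Cdh5-CreER-/-). CreER and the loss of Lrp1 therefore cannot be told apart. The cells had been selected with beads against the endothelial surface protein of Pecam1, and how many mice gave each library, and how Cre was induced in them, is not given in the sources used here, so that p-values measure the spread between these libraries.

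The value for each gene and library is a quantile-normalized signal with no stated unit, so that levels were compared between libraries and not between genes. The number of reads behind each library is unknown. Lrp1, the targeted gene, had signals between 56.2 and 85.1 in WT libraries and between 2.16 and 6.01 in eKO libraries. The summed signal of 10 endothelial markers lay between 49.1 and 51.7 in WT and between 58.1 and 81.8 in eKO libraries, and 3 of the 8 that were tested rose. Cdh5 lay between 1.26 and 2.27 in WT and between 2.21 and 4.99 in eKO libraries, Pecam1 lay between 1.53 and 3.85 over all libraries, and Tek and Erg were below 1 in every library, while Eng rose from at most 13.8 in WT to at least 19.7 in eKO libraries. The summed signal of 9 markers of liver sinusoidal endothelium lay between 37.2 and 40.5 in WT and between 38.1 and 60.7 in eKO libraries. Msln, a marker of mesothelium, lay between 837 and 1111 in WT and between 1245 and 1370 in eKO libraries, and Acta2, the smooth muscle actin gene, between 756 and 1099 over all libraries. In bulk RNA, fewer cells of a type and less RNA per cell cannot be told apart. The cell type is known from the labels alone, and whether endothelial cells gave the signals of the genes examined here was not tested. Among the genes examined here, WT replicate 4 had the lowest WT signal for 17 of the 23 that were tested, and eKO replicate 2 the lowest eKO signal for 10.

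As background, the α subunit largely sets which ligand an integrin holds. α1, α2, α10 and α11 bind collagens, α3, α6 and α7 bind laminins, and α5, α8, αv and αIIb bind ligands with an RGD motif such as fibronectin, vitronectin or fibrinogen. The leukocyte subunits αL, αM, αX and αE pair with β2 or β7. Talin (Tln1) and kindlin-2 (Fermt2) bind the β tail and activate the receptor, vinculin (Vcl) reinforces the link from talin to actin, and the kinase-like protein Ilk forms a complex with Lims1 (PINCH1) and Parva (α-parvin). LRP1 is an endocytic receptor that has been linked to the uptake and surface level of β1 and β2 integrins.

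RefSeq promoter sequences on GRCm38.p6, from 250 bases before to 50 bases after an annotated transcript start, were found for 24 of the 32 genes. Some genes, such as Lims1, had several, and that of Itga9 lay inside the annotated gene. Shown here are those of Itga5 and Itga10, the genes with the largest log2 fold change in each direction among those past the adjusted p and with a promoter entry. Also shown is that of Itgam, the leukocyte subunit with the largest standard error of the log2 fold change. Capitals mark 3 motifs that were searched on both strands, the GC box GGGCGG, the PU.1-type ETS core GAGGAA and the AP-1 motif TGANTCA.
Itga5, chr15:103366742-103367041, minus strand: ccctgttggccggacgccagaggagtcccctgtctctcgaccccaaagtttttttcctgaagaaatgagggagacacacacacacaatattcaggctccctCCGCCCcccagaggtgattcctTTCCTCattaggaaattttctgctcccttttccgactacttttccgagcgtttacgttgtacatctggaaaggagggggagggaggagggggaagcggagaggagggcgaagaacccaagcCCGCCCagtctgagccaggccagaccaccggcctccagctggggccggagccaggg
Itga10, chr3:96645334-96645633, plus strand: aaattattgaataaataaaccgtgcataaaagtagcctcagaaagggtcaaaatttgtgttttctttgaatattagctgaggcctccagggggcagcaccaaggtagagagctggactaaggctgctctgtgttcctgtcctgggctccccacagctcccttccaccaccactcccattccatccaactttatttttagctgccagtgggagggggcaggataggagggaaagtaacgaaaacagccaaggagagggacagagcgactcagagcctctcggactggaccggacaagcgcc
Itgam, chr7:128062390-128062689, plus strand: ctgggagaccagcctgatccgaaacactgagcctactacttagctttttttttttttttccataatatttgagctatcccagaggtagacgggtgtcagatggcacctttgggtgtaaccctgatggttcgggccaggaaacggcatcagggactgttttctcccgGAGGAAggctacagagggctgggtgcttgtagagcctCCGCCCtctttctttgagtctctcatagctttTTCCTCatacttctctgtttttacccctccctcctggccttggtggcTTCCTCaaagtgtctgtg

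The Itga5 promoter held 2 GC boxes and 1 GAGGAA, that of Itga10 held none of the 3 motifs, and that of Itgam held 3 GAGGAA and 1 GC box. Over all 32851 promoters of the same length, 35.7% held GGGCGG, 28.3% held GAGGAA and 7.81% held TGANTCA. Of the 24 genes with a promoter entry, 13 had GGGCGG, 11 had GAGGAA and 3 had TGANTCA in at least 1 promoter. These counts are per gene and the shares per promoter, so that they cannot be compared directly. A match describes the letters of this window only.

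The genotypes were compared by limma on log2(signal + 1), with Benjamini-Hochberg adjustment over the 11391 genes whose signal reached 1 or more in 4 or more of the 8 libraries. Of the 32 genes, 23 passed this filter and 9 did not. At an adjusted p below 0.05, 9 of the 23 were higher and 1 was lower in eKO libraries. Of all genes tested, 19.0% were higher and 22.2% were lower at this threshold. The share of higher genes was 39.1% among the 23 genes, whose median log2 fold change was 0.22 beside -0.0095 for all genes tested. WT replicate 4 and eKO replicate 2 were the libraries most often lowest in their groups among these same genes. Without both of them, 14 were higher and 2 were lower, beside 2281 higher and 2624 lower of all genes. With 1 library left out, between 6 (without eKO replicate 1 or 3) and 12 (without WT replicate 4) were higher. Of all genes, 1748 and 1670 were higher without eKO replicate 1 and 3, and 2200 without WT replicate 4. With a 2-fold change also required, Itga6 and Itgb4 remained, while 0.869% of all genes tested were higher and 0.790% were lower by that rule. Signals of the genotypes did not overlap for 12 of the 23 genes, 11 higher and 1 lower, where 20.0% of all genes tested were higher without overlap and 22.5% lower.

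**Figure D1:**
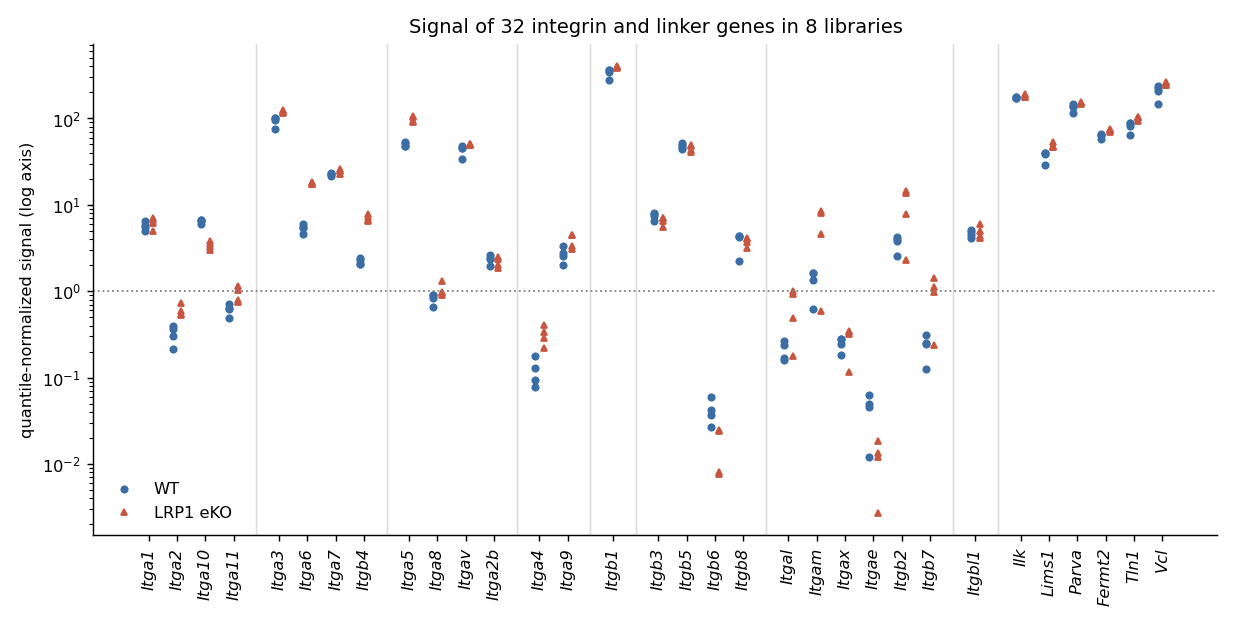
Quantile-normalized signal (log axis) of the 32 genes in 4 WT libraries (circles) and 4 LRP1 eKO libraries (triangles), grouped by role, with a dotted line at a signal of 1. Itga6, Itgb4, Itga5 and Itga10 show separate groups, and 9 genes lie mostly below the line.

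**Figure D2:**
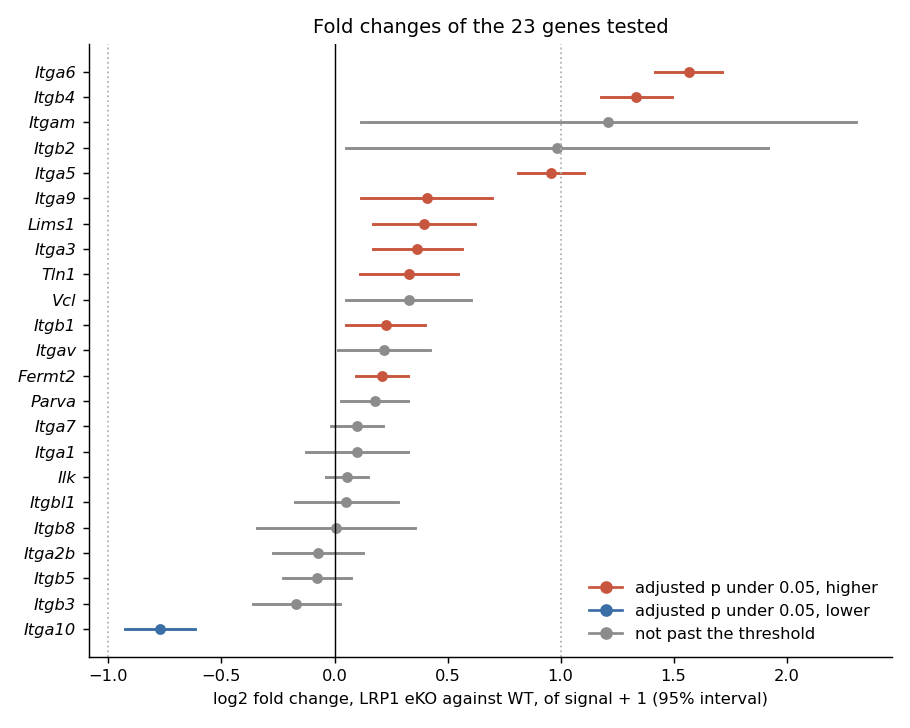
Log2 fold change of signal + 1 in LRP1 eKO against WT libraries for the 23 genes tested, with the 95% confidence interval from limma and dotted lines at a 2-fold change. Itga6 (1.57) and Itgb4 (1.34) lie past 1, Itga10 (-0.77) is the lower gene past the threshold, and Itgam and Itgb2 have the widest intervals.

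The laminin-binding subunits held the largest increases among the genes past the threshold. Itga6 and Itgb4, which together encode α6β4, the laminin receptor of hemidesmosomes in epithelia, were each over 3-fold higher by the ratio of mean signals. Itga6 (chromosome 2, 71745616 to 71858416 on GRCm38) stood at 5.42, 5.51, 5.95 and 4.63 in the WT libraries and at 18.0, 18.4, 17.4 and 17.6 in the eKO libraries, each in the order of replicates 1 to 4, as throughout. Every eKO library was far above every WT library, and the eKO signals lay within a narrow band. The mean rose from 5.38 ± 0.551 to 17.8 ± 0.434 (mean ± SD, n = 4 each), with a log2 difference of 1.57 (standard error 0.067, adjusted p = 2.7e-07 by limma). Itgb4 (chromosome 11, 115974709 to 116008412) had signals of 2.40, 2.30, 2.06 and 2.09 in WT and of 6.58, 7.92, 7.26 and 6.71 in eKO libraries. Again the groups were apart, and the log2 fold change was 1.34 (standard error 0.070, adjusted p = 1.0e-06 by limma). The exact two-sided permutation test gave p = 0.029 for each gene, the smallest p that 4 libraries against 4 allow. With each library left out in turn, the log2 fold change stayed between 1.51 and 1.61 for Itga6 and between 1.29 and 1.37 for Itgb4. With a pseudocount of 5 it was 1.14 for Itga6 and 0.75 for Itgb4, so that Itgb4 no longer passed the 2-fold threshold. For 5 cholangiocyte and epithelial markers the summed signal lay between 298 and 314 in WT and between 249 and 277 in eKO libraries. Of the 3 that were tested, 0 were higher and 2 were lower. The part of epithelial cells in the signal of Itga6 and Itgb4 was not tested.

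**Figure D3:**
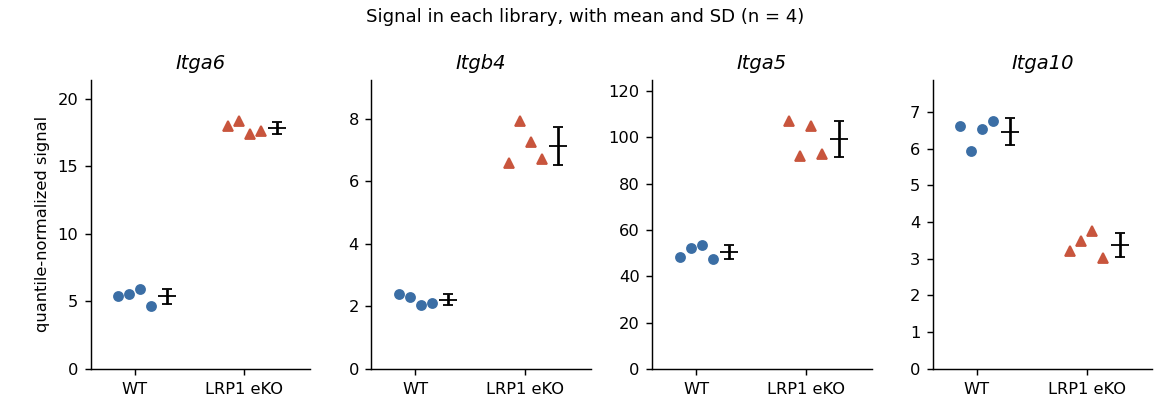
Quantile-normalized signal (linear axis from 0) of Itga6, Itgb4, Itga5 and Itga10 in each WT (circles) and LRP1 eKO (triangles) library, with the mean and SD of each group (n = 4) as a bar to the right. Groups do not overlap for any of these 4 genes, with Itga10 lower and the other 3 higher in eKO libraries.

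Itga3, whose product pairs with β1 on laminins, rose less. Its signals were 102, 101, 96.0 and 75.1 in WT and 118, 122, 125 and 115 in eKO libraries, a log2 fold change of 0.37 (standard error 0.089, adjusted p = 0.0090 by limma). WT replicate 4 was well below the other WT libraries, and without it the log2 fold change was 0.27 (adjusted p = 9.3e-04 by limma). Itga7, the laminin-binding partner of β1 in muscle, went from 22.6 ± 0.834 to 24.4 ± 1.27 (mean ± SD, n = 4 each) and did not pass the threshold (adjusted p = 0.14 by limma, 95% confidence interval of the log2 fold change from -0.014 to 0.22). All 3 skeletal muscle markers that were tested fell. The summed signal of the 6 that were found was between 18.2 and 29.1 in WT and between 3.37 and 4.71 in eKO libraries. All 4 smooth muscle markers rose, with a summed signal between 1451 and 1514 in WT and between 1795 and 1877 in eKO libraries. The part of muscle cells in the signal of Itga7 was not tested.

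Among the RGD-binding α subunits, Itga5 rose most. Itga5 encodes the α subunit of α5β1, the main fibronectin receptor. Its signals were 48.5, 52.4, 53.6 and 47.5 in WT and 107, 92.1, 105 and 92.7 in eKO libraries. All eKO libraries were above all WT libraries, with a ratio of means of 1.96 and a log2 fold change of 0.96 (standard error 0.065, adjusted p = 4.8e-06 by limma). This was below the 2-fold threshold, and the log2 fold change stayed between 0.92 and 0.99 with each library left out. Itgav, whose product pairs with β1, β3, β5, β6 or β8, had signals of 45.7, 48.0, 45.2 and 34.3 in WT and of 49.9, 51.1, 49.1 and 50.8 in eKO libraries. Its groups did not overlap, but the difference of 0.22 on the log2 scale did not pass the threshold (adjusted p = 0.079 by limma), and it was 0.11 without WT replicate 4 (adjusted p = 0.029 by limma) and 0.27 without WT replicate 2 (adjusted p = 0.048 by limma). Itga2b, the platelet subunit αIIb, lay between 1.86 and 2.62 over all libraries, with overlapping groups (adjusted p = 0.54 by limma). Itga8, a subunit of mesenchymal cells, was below the filter, with signals between 0.662 and 0.901 in WT and between 0.902 and 1.31 in eKO libraries.

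Itga10, a collagen-binding subunit known from cartilage, was the only gene among the 23 tested that was lower past the threshold. Its signals were 6.62, 5.93, 6.52 and 6.75 in WT and 3.21, 3.49, 3.76 and 3.03 in eKO libraries. The eKO mean was 52.2% of the WT mean, with a log2 fold change of -0.77 (standard error 0.069, adjusted p = 2.7e-05 by limma), and every eKO library was below every WT library. With a pseudocount of 5 the log2 fold change was -0.45. Itga1, the collagen receptor subunit of many mesenchymal and endothelial cells, had overlapping signals between 4.96 and 7.02 (adjusted p = 0.45 by limma, 95% confidence interval of the log2 fold change from -0.13 to 0.33). Itga2 and Itga11 were below the filter. In a fit without the filter, in which 12.0% of 17959 genes were higher and 15.3% were lower, both were higher. Itga2 lay between 0.213 and 0.397 in WT and between 0.534 and 0.724 in eKO libraries (adjusted p = 0.0083 by limma), and Itga11 between 0.487 and 0.720 and between 0.750 and 1.15 (adjusted p = 0.045 by limma).

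The subunits α4 and α9 form a separate subfamily, with ligands such as fibronectin, tenascin C or the adhesion molecule encoded by Vcam1. Itga9 had signals of 2.76, 2.02, 2.56 and 3.32 in WT and of 4.51, 3.10, 4.48 and 3.36 in eKO libraries. The groups overlapped, since WT replicate 4 was above eKO replicate 2, and the log2 fold change was 0.41 (standard error 0.13, adjusted p = 0.031 by limma). Leaving out any of WT replicates 1 to 3 or of eKO replicates 1 and 3 raised its limma adjusted p above the threshold, to at most 0.083, and in the fit without the filter it was 0.066. Itga4 was below the filter, with signals up to 0.178 in WT and between 0.220 and 0.410 in eKO libraries (adjusted p = 0.0092 without the filter by limma).

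Of the β subunits, Itgb1 is the common partner of most matrix-binding α subunits. Its signals were 349, 361, 366 and 280 in WT and 396, 384, 402 and 396 in eKO libraries. All eKO signals were above all WT signals, WT replicate 4 was the lowest library, and the log2 fold change was 0.23 (standard error 0.078, adjusted p = 0.041 by limma). The limma adjusted p was between 0.056 and 0.090 without WT replicate 1 or without any single eKO library, and 0.0086 without WT replicate 4, where the log2 fold change was 0.14. It was 0.078 in the fit without the filter and 0.052 without the mean-variance trend. The other β partners of αv that were tested did not pass the threshold. Itgb3 went from 7.43 ± 0.693 to 6.51 ± 0.708 and Itgb5 from 47.9 ± 3.25 to 45.3 ± 3.57 (mean ± SD, n = 4 each), with limma adjusted p of 0.14 and 0.37 and 95% confidence intervals of the log2 fold change from -0.36 to 0.023 and from -0.23 to 0.072. Without WT replicate 4, Itgb3 had a log2 fold change of -0.23 (adjusted p = 0.043 by limma). Itgb8, which with αv activates latent TGF-β, had WT signals of 4.39, 4.38, 4.22 and 2.27, and the sign of its log2 fold change of 0.0077 (adjusted p = 0.97 by limma) turned without WT replicate 4 (-0.17). Itgb6, the epithelial partner of αv, stayed at or below 0.0588 in every library. Itgbl1, which encodes repeats like those of β subunits but no receptor, lay between 4.09 and 5.94 over all libraries (adjusted p = 0.71 by limma).

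On the log2 scale, the leukocyte subunits Itgam and Itgb2 varied most among the genes tested, by the standard error of the log2 fold change. Itgam, the α subunit of the complement receptor Mac-1 on macrophages and neutrophils, had signals of 1.34, 1.64, 1.65 and 0.617 in WT and of 7.96, 0.586, 8.54 and 4.61 in eKO libraries. Itgb2, its β partner, had signals of 3.77, 3.99, 4.24 and 2.55 in WT and of 14.5, 2.32, 13.8 and 7.90 in eKO libraries. For both genes eKO replicates 1, 3 and 4 were above every WT library and eKO replicate 2 was below every WT library. Neither difference passed the threshold, with log2 fold changes of 1.21 for Itgam (standard error 0.49, adjusted p = 0.073 by limma) and of 0.98 for Itgb2 (standard error 0.42, adjusted p = 0.085 by limma). Without eKO replicate 2 they were 1.79 (adjusted p = 3.5e-04 by limma) and 1.47 (adjusted p = 6.5e-04 by limma). With a pseudocount of 5 the log2 fold change of Itgam was 0.65.

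Itgal, Itgb7, Itgax and Itgae were below the filter. Itgb7 had eKO signals of 1.12, 0.237, 1.44 and 0.973 against WT signals between 0.126 and 0.311, and Itgal had eKO signals of 1.01, 0.176, 0.937 and 0.493 against WT signals between 0.159 and 0.268. In both, eKO replicate 2 was within the WT range and the other eKO libraries were above it. In the fit without the filter Itgb7 passed the threshold (adjusted p = 0.046 by limma) and Itgal did not (adjusted p = 0.089 by limma). Itgax stayed at or below 0.346 and Itgae at or below 0.0629 in every library. The summed signal of 15 macrophage and Kupffer cell markers moved with Itgam, Itgb2, Itgb7 and Itgal between eKO libraries. It stood at 196, 214, 230 and 117 in WT and at 776, 55.8, 710 and 416 in eKO libraries. Of these markers 10 were tested and 1 was higher, Clec4f and Timd4, which define Kupffer cells, were below 1 in every library, and 0 were at 0 in all libraries. All 8 lymphocyte markers were below 1 in every library, as were 7 of 8 neutrophil markers. The part of these cells in the signal of the leukocyte subunits was not tested.

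**Figure D4:**
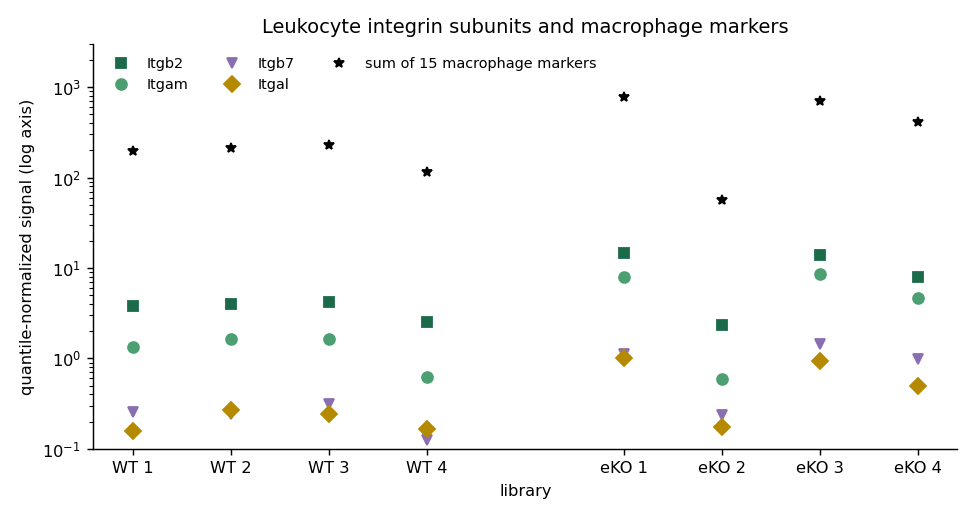
Quantile-normalized signal (log axis) of Itgb2, Itgam, Itgb7 and Itgal in each of 4 WT and 4 LRP1 eKO (eKO) libraries, with the summed signal of 15 macrophage markers as stars. In eKO replicate 2 the marker sum was 55.8 and Itgam 0.586, the lowest values of both over all libraries.

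Linkers rose little or did not pass the threshold. Tln1 had signals of 89.8, 88.0, 81.3 and 63.5 in WT and of 105, 101, 103 and 94.7 in eKO libraries, a log2 fold change of 0.33 (standard error 0.098, adjusted p = 0.023 by limma). Fermt2 had signals of 63.6, 66.1, 65.1 and 57.5 in WT and of 74.6, 72.9, 74.1 and 70.4 in eKO libraries, a log2 fold change of 0.21 (standard error 0.051, adjusted p = 0.0092 by limma). Both activators were thus higher without overlap of the groups, although Tln1 did not pass the threshold without eKO replicate 1 or 3 (adjusted p = 0.057 and 0.054 by limma). Vcl had signals of 223, 235, 210 and 148 in WT and of 245, 257, 263 and 247 in eKO libraries. WT replicate 4 widened the WT spread, and the log2 fold change of 0.33 had a limma adjusted p of 0.057, but one of 0.18 without that library had a limma adjusted p of 0.012. Without WT replicate 2, the log2 fold change was 0.40 (adjusted p = 0.033 by limma).

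Within the complex of Ilk, Lims1 and Parva, only Lims1 passed the threshold. Lims1, the adaptor PINCH1, had signals of 38.5, 40.2, 40.3 and 28.9 in WT and of 47.4, 53.5, 47.3 and 46.2 in eKO libraries, a log2 fold change of 0.40 (standard error 0.10, adjusted p = 0.012 by limma). Parva, which binds actin, had signals of 135, 140, 146 and 116 in WT and of 151, 151, 154 and 148 in eKO libraries, and its log2 fold change of 0.18 did not pass the threshold (adjusted p = 0.055 by limma). Without WT replicate 3 or 4 it did, with log2 fold changes of 0.22 and 0.11 (adjusted p = 0.032 and 0.036 by limma). Ilk had signals of 174, 177, 172 and 179 in WT and of 187, 191, 176 and 177 in eKO libraries. These overlapped, and the 95% confidence interval of the log2 fold change of 0.055 was from -0.037 to 0.15 (adjusted p = 0.31 by limma). The summed signal of 4 mesothelial markers was also lowest in WT replicate 4, at 1442 against 1726 to 1821 in the other WT libraries. In eKO libraries it was between 1874 and 2085. Of these 4 markers, 1 passed the threshold and was higher, and the mean log2 signal was higher for 2 and lower for 2. All 4 smooth muscle markers rose. Their summed signal was between 1451 and 1514 in WT and between 1795 and 1877 in eKO libraries. For 9 markers of hepatic stellate cells and fibroblasts the sum was lower, between 608 and 644 in eKO against 712 to 770 in WT libraries. Of the 6 that were tested, 1 was higher and 3 were lower. The part of mesothelial, smooth muscle, stellate and fibroblast cells in the signal of the linkers and of Itgb1 was not tested.

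**Figure D5:**
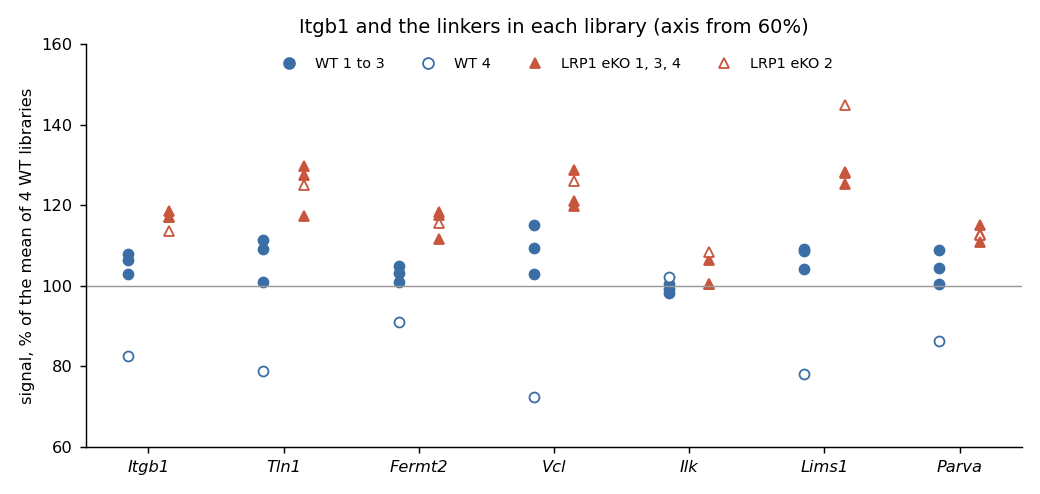
Signal of Itgb1 and the 6 linkers in each library as a percentage of the mean of the 4 WT libraries (axis from 60%), with circles for WT and triangles for eKO libraries and open symbols for WT replicate 4 and eKO replicate 2. WT replicate 4 is the lowest library for each gene except Ilk, and eKO libraries lie above WT libraries without overlap for each gene except Ilk.

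The balance between related genes was compared as the difference of their log2(signal + 1) within each library, over 8 pairs. For Itga6 against Itga3 this difference was -3.88 ± 0.120 in WT and -2.68 ± 0.0645 in eKO libraries (mean ± SD, n = 4 each), a shift of 1.20 toward Itga6, or of 0.79 with a pseudocount of 5. For Itga5 against Itgav it was 0.23 ± 0.169 and 0.97 ± 0.137 (mean ± SD, n = 4 each), a shift of 0.74 toward Itga5. The libraries of the genotypes did not overlap for either pair (exact two-sided permutation test, p = 0.029 each), but with 8 pairs the adjusted p was 0.11, the smallest that 2 pairs at the smallest p can reach. By this exact permutation test, 0 of 8 pairs passed the threshold after adjustment and 2 had an unadjusted p below 0.05. The linkers and their paralogs gave overlapping groups. The differences of LRP1 eKO from WT libraries were 0.49 for Fermt3 against Fermt2, 0.11 for Parvg against Parva, -0.071 for Lims2 against Lims1 and 0.028 for Tln2 against Tln1. The sign of the last 3 was not stable, turning to -0.037 without eKO replicate 1 for Parvg, to 0.021 without WT replicate 4 for Lims2, and to -0.054 and -0.020 without WT replicate 1 and eKO replicate 2 for Tln2. A pseudocount of 5 also turned it for Parvg (-0.090) and Tln2 (-0.16). The difference for Fermt3 was 0.86 without eKO replicate 2 and 0.31 without eKO replicate 1 or 3, and 0.14 with a pseudocount of 5. Fermt3, the kindlin of blood cells, had eKO signals between 0.758 and 4.63, and Lims2 and Tln2 rose with log2 fold changes of 0.33 and 0.36 (adjusted p = 0.0049 and 0.0075 by limma). Fermt1 and Parvg were below the filter, and Fermt3 and Parvb did not pass the threshold (adjusted p = 0.10 and 0.11 by limma), although both did without eKO replicate 2 (adjusted p = 7.8e-04 and 0.016 by limma). For Itgb2 against Itgb1 and Itgb5 against Itgb3 the differences were 0.76 and 0.089, with overlap. The first was 1.23 without eKO replicate 2, 0.50 without eKO replicate 1 and 0.44 with a pseudocount of 5. The second lay between 0.046 (without WT replicate 1) and 0.18 (without WT replicate 4) with 1 library left out.

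Other genes of the adhesion complex were taken from a list of 39, of which 36 were tested. Of these 17 rose (47.2%) and 2 fell (5.56%), beside the 19.0% and 22.2% of all genes tested, and their median log2 fold change was 0.20. Genes for actin crosslinkers were among those that rose. Actn1 (α-actinin 1) rose from 232 ± 36.1 to 396 ± 23.5 and Flnc (filamin C) from 33.3 ± 3.83 to 49.0 ± 2.94 (mean ± SD, n = 4 each), with log2 fold changes of 0.78 and 0.55 (adjusted p = 4.1e-04 and 5.7e-04 by limma). The 2 genes that fell were Trip6 and Nedd9, adaptors of the zyxin and Cas families, which were named after their values were seen (log2 fold changes -0.28 and -0.19, adjusted p = 0.0080 and 0.040 by limma). Nedd9 lost the threshold without any of WT replicates 1 to 3 or eKO replicates 2 and 4, where its limma adjusted p was at most 0.099.

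Of 19 genes for integrin activators, inhibitors, partners and traffic, all were tested, 3 rose (15.8%) and 4 fell (21.1%), near the 19.0% and 22.2% of all genes tested. Rapgef1, an exchange factor that activates the integrin regulator Rap1, rose from 14.5 ± 0.845 to 21.5 ± 0.873 and Cd47, an integrin-associated membrane protein, from 59.2 ± 2.51 to 78.5 ± 1.77 (mean ± SD, n = 4 each), with log2 fold changes of 0.54 and 0.40 (adjusted p = 6.0e-05 and 9.7e-05 by limma). Cd9, a tetraspanin that associates with β1 integrins, and Apbb1ip, which recruits talin, fell by 0.30 and 0.21 on the log2 scale (adjusted p = 0.0031 and 0.036 by limma). Apbb1ip lost the threshold without any of WT replicates 1 to 3 or eKO replicates 2 to 4, where its limma adjusted p was at most 0.079.

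Of 39 genes of the integrin ligand list, 32 were tested, 6 rose (18.8%) and 7 fell (21.9%), close to the 19.0% and 22.2% of all genes tested, with a median log2 fold change of -0.052. Tnc, which encodes tenascin C, a ligand of α9β1, rose from 7.41 ± 0.208 to 17.9 ± 1.07 (mean ± SD, n = 4 each), with a log2 difference of 1.16 (adjusted p = 4.3e-07 by limma). The fibrinogen genes Fgg, Fgb and Fga fell by 1.87, 1.75 and 1.50 on the log2 scale (adjusted p = 2.8e-06, 9.7e-06 and 4.8e-06 by limma). Hepatocyte markers fell beside them, with a summed signal of the 6 markers between 34.1 and 48.7 in WT and between 13.4 and 17.5 in eKO libraries and with both tested markers lower, and their part was not tested. Among the laminin chains of the list, described after their values were seen, Lama2 rose from 2.83 ± 0.291 to 6.32 ± 0.427 and Lamc1 from 131 ± 18.7 to 161 ± 11.4, while Lama5 fell from 41.2 ± 8.58 to 25.4 ± 3.33 (mean ± SD, n = 4 each). Their log2 fold changes were 0.93, 0.31 and -0.66 (adjusted p = 1.2e-05, 0.031 and 0.0035 by limma), and those of Lama4 and Lamb1 were 0.015 and -0.023 (adjusted p = 0.88 and 0.84 by limma). Lamc1 lost the threshold without WT replicate 1 or eKO replicate 1 or 3, where its limma adjusted p was at most 0.079. Lama3 was below the filter. Fn1, the fibronectin gene, had overlapping signals between 399 and 616 in WT and between 536 and 742 in eKO libraries (adjusted p = 0.19 by limma).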

How the data were processed

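The mRNA of liver cells was profiled in 4 WT and 4 LRP1 eKO libraries, which were assigned to groups by their labels. The authors deposited a quantile-normalized signal for 22520 protein-coding genes, and the unit before that step is not stated. The submitters' processing notes name TopHat2, Cufflinks and mm10, whereas the paper's methods name STAR, featureCounts and edgeR, and neither describes this table. Quantile normalization removes any global shift between libraries. Depth is unknown and no counting interval was computed, so that the spread between libraries gives the precision.

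From the deposited signal, log2(signal + 1) was fitted on genotype alone by limma 3.58.1 (R 4.3.3) with its mean-variance trend, for genes whose signal reached 1 or more in 4 or more libraries. Genes below this filter were fitted without it. The thresholds were an adjusted p of 0.05 and, where stated, a 2-fold change. Exact two-sided permutation tests of mean log2 values used scipy 1.17.1. The fit was tested on simulated data for the comparison of LRP1 eKO with WT (11391 genes). It called 193 of 200 genes given a log2 change of 1 and 12 of 11191 left unchanged. With a log2 change of 0.5 it called 153 of 200 and 7 of 11191 left unchanged. No change between 0 and 0.5 was simulated. These simulations changed 200 genes, while 4690 passed the adjusted p in the data. Positions came from GENCODE M21 on GRCm38 (mm10), in which 11 of the 32 genes share exon bases with another gene (among them Ilk, Tln1, Vcl, Itga10, Itgam and Itgb4), and whether reads were counted by strand is not stated. List genes under older symbols were matched by Ensembl identifier, and 226 of 227 were found.

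Values in every library are given for genes past both thresholds, the 5 next largest changes past the adjusted p, the linkers and Itgb1. For other lists the 4 largest changes past the adjusted p, the linker paralogs and the genes of the 8 pairs are named, except some genes that are not reported here. Other genes were named after their values were seen. The genes and lists were chosen with earlier results of these data known. The fit was repeated with a pseudocount of 0.1 or 5, without the filter, with a mean signal of 5 as the minimum, without the trend, with centring on a 30% trimmed mean, with the replicate number as a block, and with libraries left out. Python 3.11.15 and matplotlib 3.10.9 drew the figures.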

Additional observations from a re-analysis of the deposited data

Results flagged for a closer look

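The WT and the LRP1 eKO libraries of each of the 32 genes make 64 groups of 4, and in 4 of them Dixon's test set 1 library apart. Chance flags about 1 in 20 groups, here 3.2. Dixon's ratio, the gap between that library and its neighbour over the whole range, was 0.921 for Itgb8 and 0.843 for Lims1 in WT replicate 4, the lowest WT library for both. In LRP1 eKO replicate 2 the ratio was 0.877 for Itgax, where this library was lowest, and 0.838 for Lims1, where it was highest. Itgb8 had a signal of 2.27 in WT replicate 4 and between 4.22 and 4.39 in the other WT libraries.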

How the results depend on the processing

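Of the 10 genes past the threshold, 7 kept their direction and the threshold under each of the 16 alternatives in which they were tested, and the exceptions were Itga9, Itgb1 and Tln1, which kept their direction. Itga9 and Itgb1 lost the threshold without the filter (limma adjusted p = 0.066 and 0.078) and with single libraries left out, Itgb1 also without the trend (0.052), and Tln1 with single libraries left out. Of the other tested genes, 6 passed the threshold under at least 1 alternative (Itgav, Itgb3, Itgam, Itgb2, Parva and Vcl). The log2 fold change of Itgb8 turned to -0.0026 with a pseudocount of 5, to -0.10 without both WT replicate 4 and LRP1 eKO replicate 2, and to between -0.17 and -0.025 without WT replicate 4 or LRP1 eKO replicate 3 or 4 (lowest -0.17, highest 0.073 over all libraries left out in turn). That of Itgbl1 turned to -0.081 without both libraries and to -0.032 without LRP1 eKO replicate 2 (highest 0.11). The cause was not tested.

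Among all genes, the count past a 2-fold change was 149 higher and 166 lower with a pseudocount of 0.1, 40 and 26 with one of 5, 63 higher with a minimum mean signal of 5, 152 higher without both libraries, and from 81 to 163 higher with 1 library left out, the highest without LRP1 eKO replicate 2. Of the 32 genes, 14 were higher and 2 lower without both libraries. A minimum mean signal of 5, under which Itga10 was not tested, left 0 lower. With 1 library left out from 6 to 12 were higher and from 1 to 2 lower, with 2 lower without WT replicate 4. Of all genes, from 1670 to 2200 were higher and from 2024 to 2538 lower in those fits with 1 library left out. In the adhesion complex list, 1 gene was lower with no filter, and from 1 to 3 with 1 library left out, with 1 without any of WT replicates 1 to 3 or LRP1 eKO replicates 2 and 4. For activators and partners, 5 were higher without both libraries and from 2 to 4 were lower with 1 library left out, with 2 without any of WT replicates 1 to 3 or LRP1 eKO replicates 3 and 4. For ligands, 11 were lower without both libraries, and from 5 to 11 with 1 library left out, the highest without WT replicate 4.

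The labels do not say whether same-numbered libraries were paired. The correlation of their deviations from the group means was -0.086, -0.13, 0.18 and 0.038 for replicates 1 to 4. Over all combinations of a WT and an eKO library it was between -0.264 and 0.212. With 4 libraries per group these values cannot settle whether pairs exist. With the replicate block, 11 of the 32 genes were higher and 1 lower, beside 1975 higher and 2210 lower of all genes. Parva (limma adjusted p = 0.0499) and Vcl (limma adjusted p = 0.040) were then past the threshold. In that fit 1 gene of the adhesion complex list and 2 of the activators and partners were lower. With 1 library left out, the exact test of the pairs cannot reach the threshold, and 0 of 8 pairs passed it with a pseudocount of 0.1 or 5.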
